A study of Mus musculus with 38 samples.

Results

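The RNAs of the nucleolus and of the splicing machinery were followed in small RNA libraries of mouse sperm through 5 class rows, ensembl-rRNA, Rfam-rRNA, ensembl-snoRNA, Rfam-snoRNA and ensembl-snRNA, of 29 class rows counted among genome-matching reads. The rows were chosen by name, with the row of reads that match a database but not the genome beside each where one exists. The libraries came from 38 adult C57BL6/J males of 11 to 13 weeks, one library per mouse, from 21 litters. Dams received a control diet (CT, 20% protein) or a protein-restricted diet (PR, 8% protein) from pregnancy until their pups were weaned at 21 days, and male pups of each litter then took up either diet for the rest of life. The groups are therefore CTCT (control throughout, 10 mice), CTPR (restricted after weaning only, 9 mice), PRCT (restricted before weaning only, 9 mice) and PRPR (restricted throughout, 10 mice).

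Ribosomal RNA (rRNA) forms the core of the ribosome. Most of it is transcribed from ribosomal DNA in the nucleolus. Small nucleolar RNAs (snoRNAs) guide chemical modification of rRNA, with box C/D snoRNAs directing methylation of the ribose and box H/ACA snoRNAs directing pseudouridylation. Most snoRNAs of mammals are cut from introns of host genes. Small nuclear RNAs (snRNAs) such as U1 and U2 form the spliceosome, and U7 acts in processing of histone mRNA ends. Mature sperm carry little intact rRNA, and what a small RNA library holds of these classes is mostly fragments, since inserts were selected between 13 and 73 bases.

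The deposited counts give a single number for each of these classes and no gene-level values, so the sequences below, taken from GENCODE vM21 (GRCm38, the assembly also named mm10), only show what kind of RNA each row collects and how it compares with the insert length. The release of Ensembl that the authors used is not given in the sources used here. In vM21, 354 genes are typed rRNA with a median length of 116 bases, 1507 snoRNA with a median of 127 and 1383 snRNA with a median of 107. No more than 0.847% of the rRNA genes, 6.44% of the snoRNA genes and 5.42% of the snRNA genes are 73 bases or shorter. Most of these RNAs are therefore too long to be read whole, but the box C/D snoRNA Snord95 (chr11:48803139-48803206, plus strand) and the U7 gene Rnu7 (chr6:124741225-124741286, minus strand) are short enough. Capitals mark box C (TGATGA) and box D (CTGA) in Snord95, and no stretch is marked in Rnu7.
Snord95: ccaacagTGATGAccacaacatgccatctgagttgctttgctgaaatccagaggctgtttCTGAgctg
Rnu7: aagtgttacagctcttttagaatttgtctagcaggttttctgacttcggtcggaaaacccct
TGATGA within the first 20 bases together with CTGA within the last 20, on the sense strand, was present in 20.5% of the snoRNA genes and in 0% of the snRNA and rRNA genes. ACA at 3 bases from the 3′ end, the place of the ACA box, was present in 18.3% of the snoRNA genes, 0.94% of the snRNA genes and 0.565% of the rRNA genes. The remaining snoRNA entries held neither pattern in these windows.

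Each library held between 4465281 and 7612603 reads matching the genome, of 10709017 to 13496750 clean reads, and all levels below are percentages of the genome-matching reads of the same mouse. The CTCT mouse 35F2 stood apart. Its class rows added up to 613236 reads more than its genome-matching total, and 9 of its 29 class rows lay above those of all other mice, among them Rfam-snoRNA, ensembl-snRNA and ensembl-misc_RNA, the last at 4.57% against a median of 0.153%. The class rows of 08G5 (PRPR) and 31A3 (PRCT) differed from the total by -1242386 and -119111 reads, and in 07C3 (CTCT) matched and unmatched rows together differed from the clean reads by -73612. In the other 34 mice the class rows differed from the genome-matching total by -6755 to -495 reads. Results are given with and without 35F2. For litter 47I the deposited labels, which were followed, give 47I1 as CTCT and 47I2 as CTPR, whereas the study's own list gives the opposite.

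The 5 rows together held a median of 26.9% of the genome-matching reads, from 10.9% in mouse 02A6 (CTCT) to 49.6% in 23F4 (PRCT). Most of this was ensembl-snoRNA, with a median of 22.6%. ensembl-snRNA followed with 2.07%, Rfam-rRNA with 1.39% and ensembl-rRNA with 0.629%, while Rfam-snoRNA was the smallest row with a median of 0.00331%, or 207 reads per mouse. The order of the snoRNA, snRNA and rRNA rows was not the same in every mouse, since Rfam-rRNA exceeded ensembl-snRNA in all 6 mice of litters 02A, 14A and 08G and also in 09H5 and 59L1. The rows also differed in spread. Over 38 mice the coefficient of variation was 32.7% for ensembl-rRNA, 44.1% for Rfam-rRNA, 45.6% for ensembl-snoRNA, 82.2% for ensembl-snRNA and 494% for Rfam-snoRNA, and without 35F2 the last 2 came to 69.0% and 124%.

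**Figure D1:**
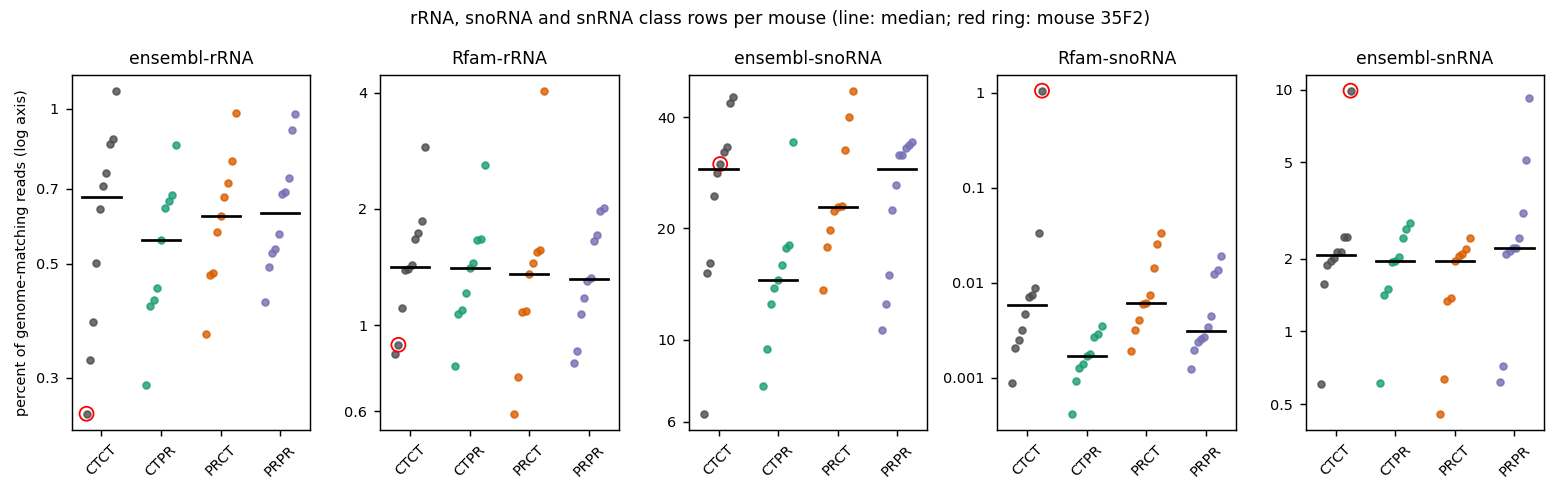
Percent of genome-matching reads (log axis, one scale per panel) in each of 38 mice by diet group for the 5 class rows, with the group median as a line and mouse 35F2 ringed. The ensembl-snoRNA median of CTPR, 14.5%, is the lowest of the 4 groups, and 35F2 lies far above all other mice in Rfam-snoRNA.

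The snoRNA row was lower in CTPR mice than in CTCT mice, though not past the adjusted threshold. ensembl-snoRNA, which collects the bulk of snoRNA fragments, ran from 6.30% through a median of 29.0% to 45.3% in CTCT mice. In CTPR mice it ran from 7.48% through 14.5% to 34.3%, in PRCT mice from 13.6% through 22.8% to 47.1% and in PRPR mice from 10.6% through 28.9% to 34.2%. The groups overlapped, but 8 of 9 CTPR mice lay at or below 18% and only 09H5 lay above. The mean was 16% ± 7.72 (SD, n = 9) in CTPR against 27.4% ± 12.4 (n = 10) in CTCT, a difference of -11.5 percentage points ± 4.68 (SE) with p = 0.0299 in an exact two-sided permutation test and 0.598 after Benjamini-Hochberg adjustment over 20 tests. In the edgeR fit over all 29 class rows its log2 fold change was -0.78 ± 0.30 (SE), with p = 0.0143 and adjusted p = 0.0689. Without 35F2 the log2 fold change was -0.77 ± 0.31, adjusted p = 0.259. Leaving out 09H5 gave -1.01 with an adjusted p of 0.00942, and leaving out litter 02A gave -0.88 with an adjusted p of 0.0258. Among the fits that each left out 1 mouse other than 35F2, 4 of 37 passed the adjusted threshold.

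Littermates gave the same direction with a smaller difference. The CTPR mouse had less ensembl-snoRNA than its CTCT littermate in 7 of 8 litters, the exception being 02A with 13.8% against 6.30%. The widest gap was in litter 57P, with 7.48% against 28.1%, and in litters 45L and 47I the littermates were within 1 percentage point. By the study's own list, litter 47I (14.5% against 15.2% by the deposited labels) would count the other way. The mean littermate difference was -7.84 percentage points (exact two-sided sign-flip permutation test, p = 0.0625, adjusted p = 0.156). On the log2 scale it was -0.48, and -0.37 without litter 35F. With litter as a block in edgeR the log2 fold change was -0.48, adjusted p = 0.487. After restriction before weaning no such difference was seen. PRCT and PRPR mice differed from CTCT by log2 fold changes of -0.05 ± 0.30 and -0.13 ± 0.29, and PRPR from PRCT by -0.08 ± 0.30, the PRPR mouse being lower in 6 of 9 litters. The CTPR change less the PRPR change against PRCT was -0.70 ± 0.43 with p = 0.11 and adjusted p = 0.32, so a dependence on the dam's diet was not shown.

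Beside the lower snoRNA median, the CTPR group had higher medians of the miRNAs listed as markers of germ cells and of other cell types. The miRBase-miRNA row as a whole was also higher in CTPR than in CTCT, with a log2 fold change of 0.78 ± 0.48 (SE) in edgeR (adjusted p = 0.236). The marker sums were not set against that row. The summed level of 15 of 16 listed miRNAs of male germ cells (miR-34b, miR-34c, miR-449 and the X-linked clusters) ran from 45.5 through a median of 666 to 1816 in CTCT, per 1000000 genome-matching reads, and from 220 through 1609 to 2815 in CTPR. In PRCT it ran from 399 through 964 to 1576 and in PRPR from 331 through 798 to 2628. For 6 of 6 listed miRNAs of epithelium the median was 535 in CTCT (40.0 to 1321), 1061 in CTPR (34.2 to 2279), 399 in PRCT (134 to 1066) and 460 in PRPR (99.1 to 1323). For 5 of 6 of muscle it was 1549 (63.5 to 3277), 2606 (71.6 to 8576), 1270 (387 to 3443) and 1153 (249.7 to 3548) in the same order. For 7 of 10 of blood it was 27.0 (5.73 to 38), 37.2 (7.75 to 94.6), 23.8 (4.74 to 39.3) and 20.7 (6.94 to 65.5). The names not found were miR-145 for muscle and miR-451, miR-142 and miR-486 for blood. The names miR-145a, miR-451a, miR-142a and miR-486a of the same lists were found. Over 38 mice, Spearman's rho of ensembl-snoRNA was -0.57 with the germ cell sum, -0.353 with epithelium, -0.423 with muscle and -0.424 with blood, all shares of the same total. The germ cell miRNAs were thus present in each library labelled sperm, and the groups overlapped in all 4 sums. The part of these RNAs in the snoRNA difference was not tested, and in bulk libraries fewer cells of a type and less RNA per cell cannot be told apart.

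Across mice the snoRNA row moved most closely with ensembl-processed_transcript (Spearman's rho = 0.897 over 38 mice), a class of spliced transcripts without an open reading frame, among them host genes of snoRNAs. It moved most against piRNAdb-piRNA (rho = -0.782), another large share of the same total. Of 412 miRNAs, tRNAs and piRNAs with at least 10 reads in every mouse, the 3 closest to ensembl-snoRNA were piR-mmu-16510213 (rho = 0.471), mmu-mir-3535 (0.415) and mmu-mir-677 (0.274). The hairpin of the last lies on a gene that vM21 also types as a snoRNA.

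In all, 7 listed miRNAs have hairpins that overlap snoRNA genes wholly or in part, so that fragments of those RNAs can be counted in the miRNA row. They are shown here because their reads are counted by single hairpin and not by class. Capitals mark the mature miRNA in the snoRNA gene Mir677 (chr10:128085289-128085360, plus strand), in Snora36b (chr1:185242907-185243038, plus strand), which carries miR-664, and in Snora34 (chr15:98519716-98519853, minus strand), which carries miR-1291.
Mir677: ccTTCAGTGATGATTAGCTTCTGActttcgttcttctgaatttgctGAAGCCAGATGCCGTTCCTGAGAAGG
Snora36b: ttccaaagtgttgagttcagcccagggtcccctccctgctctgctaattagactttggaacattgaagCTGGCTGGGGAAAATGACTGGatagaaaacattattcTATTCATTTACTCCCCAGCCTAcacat
Snora34: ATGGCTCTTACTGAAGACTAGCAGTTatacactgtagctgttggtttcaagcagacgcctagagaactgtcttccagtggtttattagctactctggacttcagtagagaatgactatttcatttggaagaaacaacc
The mature forms, from RefSeq on GRCm38.p6, follow with the seed (bases 2 to 8) in capitals, and none of the 5 shares a seed with another.
mmu-miR-677-5p: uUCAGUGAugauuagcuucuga
mmu-miR-677-3p: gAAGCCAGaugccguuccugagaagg
mmu-miR-664-5p: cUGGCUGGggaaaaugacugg
mmu-miR-664-3p: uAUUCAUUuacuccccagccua
mmu-miR-1291: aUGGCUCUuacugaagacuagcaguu
mmu-mir-677 had 22 to 364 reads per mouse (median 221) and mmu-mir-3068, on another snoRNA gene, 5 to 356 (median 126). mmu-mir-1291 had 0 to 136 (median 53.5), and mmu-mir-664 had at most 8 reads and none in 18 mice. The other 3, mmu-mir-5121, whose hairpin overlaps Snord33 only in part, and mmu-mir-3084-1 and mmu-mir-3084-2 on Gm23658 and Snora19, had medians of 11, 8 and 7.5 reads. The sum of the 7 had a median of 66.0 per 1000000 genome-matching reads in CTCT (6.50 to 106), 70.1 in CTPR (10.0 to 109), 48.7 in PRCT (20.5 to 132) and 71.6 in PRPR (33.1 to 113). Its Spearman's rho with ensembl-snoRNA was -0.0012, and the groups overlapped. With ensembl-snRNA the rho was 0.65 for mmu-mir-5121, 0.649 for mmu-mir-677, 0.619 for mmu-mir-3068, 0.524 for mmu-mir-1291, 0.312 for mmu-mir-3084-2, 0.295 for mmu-mir-3084-1 and 0.0484 for mmu-mir-664.

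Rfam-snoRNA, a far smaller row of the same family from a second database, had its lowest median in the CTPR group, and its edgeR calls were lost without 35F2. It ran from 39 through a median of 367.5 to 70280 reads in CTCT mice, the highest being 35F2 and the next 2156 in 07C3. In CTPR mice it ran from 27 through 96 to 210 reads, in PRCT mice through a median of 443 to 2203 and in PRPR mice from 75 through 185 to 1053. In percent the lowest PRCT mouse was at 0.00190%, within the CTPR range, and the groups overlapped. In the edgeR fit of all mice its log2 fold change against CTCT was -5.93 ± 1.17 in CTPR (adjusted p = 0.00012), -3.30 ± 1.03 in PRCT (adjusted p = 0.0135) and -4.13 ± 1.03 in PRPR (adjusted p = 0.00198). Of all 29 class rows, 17.2% passed in CTPR, 20.7% in PRCT and 17.2% in PRPR, and Rfam-snoRNA was the only one of the 5 rows among them. In PRPR against PRCT 0% passed. Between the dam diets, the effects of feeding after weaning differed in 17.2% of class rows, with Rfam-snoRNA at -5.09 ± 1.41 (adjusted p = 0.00872).

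Without 35F2, no class row passed the adjusted threshold in any comparison with edgeR. At an unadjusted p under 0.05 the shares were 13.8% of the 29 rows in CTPR, 17.2% in PRCT, 3.45% in PRPR, 3.45% in PRPR against PRCT and 3.45% for the interaction. Of the 5 rows described here, both snoRNA rows were in the first of these counts and ensembl-snRNA in that of PRPR against PRCT. Rfam-snoRNA then had a log2 fold change of -2.08 ± 0.62 in CTPR (p = 0.00177, adjusted p = 0.0515), 0.54 ± 0.59 in PRCT and -0.29 ± 0.58 in PRPR. In percent of genome-matching reads the CTPR mean was 0.00184% ± 0.000993 (SD, n = 9) against 0.00778% ± 0.00998 (n = 9) in CTCT without 35F2, with p = 0.00954 in an exact permutation test and 0.191 after adjustment. DESeq2, which by default replaces single outlying counts, gave -2.02 with all mice (adjusted p = 0.0102). With 07C3, 31A3 and 08G5 left out too, edgeR gave -1.32 (adjusted p = 0.441). With 35F2 included, the CTPR mouse had less Rfam-snoRNA than its CTCT littermate in 6 of 8 litters. Sign flips within litters gave p = 0.0391 in an exact permutation test, adjusted p = 0.13. Litter 35F, with 0.0014% against 1.05%, had by far the widest gap, and the sign flips were not run without it. On the log2 scale the mean littermate difference was -2.23, and -1.19 without litter 35F. With 35F2 included, edgeR with litter as a block gave -1.72 with an adjusted p of 0.487. The PRPR mouse had less than its PRCT littermate in 8 of 9 litters. Flipping signs within litters gave p = 0.0117 in an exact permutation test and 0.0586 after adjustment, and edgeR with litter as a block gave a log2 fold change of -0.63 with an adjusted p of 0.23.

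Reads of Rfam-snoRNA that did not match the genome were few outside 35F2. They were present in 21 of 38 mice, 35F2 included, with at most 15 reads in the others and 136783 in 35F2, where they made up 66.1% of the row's reads. An Rfam-snRNA row existed among unmatched reads only, with 35 to 403 reads per mouse. The ratio of Rfam-snoRNA to ensembl-snoRNA was lower in CTPR than in CTCT by a log2 difference of -1.63 ± 0.87 (exact permutation test, p = 0.0489, adjusted p = 0.845), and by -0.89 ± 0.48 without 35F2 (p = 0.079).

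**Figure D2:**
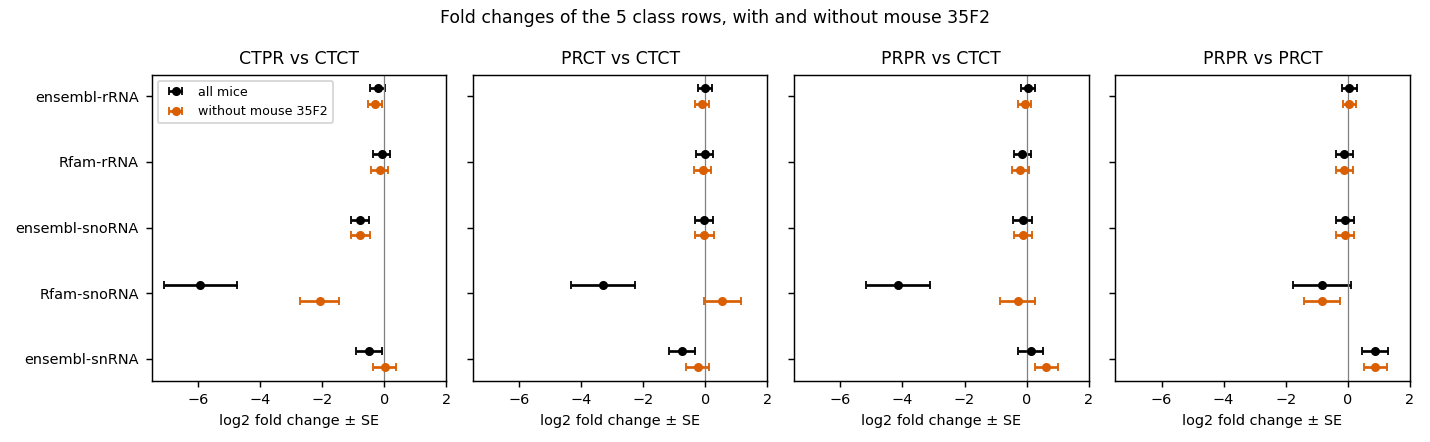
Log2 fold change with its standard error from edgeR for the 5 class rows in 4 comparisons, with all mice (black) and without mouse 35F2 (orange). Without 35F2 the Rfam-snoRNA values move from -5.93 to -2.08 in CTPR and from -3.30 to 0.54 in PRCT, while the rRNA rows stay near 0 in each.

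The snRNA row set litters 02A, 14A and 08G apart from the rest. ensembl-snRNA, which collects fragments of the spliceosomal RNAs and their many gene copies, lay between 0.457% and 0.718% in the 6 mice of litters 02A, 14A and 08G and between 1.34% and 9.90% in the other 32. The medians were 0.615% and 2.13%, a gap of 3.47-fold with no value in between. These 6 mice came from all 4 groups, with 1 CTCT, 1 CTPR, 2 PRCT and 2 PRPR mice. They also held more Rfam-rRNA (median 2.30% against 1.34%) and less ensembl-snoRNA (13.7% against 22.9%) and scaRNA (0.00716% against 0.0140%), the guide RNAs of the Cajal body that modify snRNAs, with overlap in each. Litter 14A went the other way in snoRNA, with 40.0% in 14A4 and 33% in 14A5, and 14A4 held 1.09% Rfam-rRNA. In scaRNA 14A4 (0.0154%) and 14A5 (0.0141%) also lay above the median of the other mice. The share of clean reads that matched the genome was the lowest of all mice in 02A6 (41.7%), 02A8 (41.9%) and 14A5 (46.2%). It was 52.1% in 14A4, 55.5% in 08G3 and 51.5% in 08G5, a library whose totals did not add up. Litters 02A, 14A and 08G were picked out after their snRNA values were seen and were not tested against the rest. At the upper end stood 35F2 with 9.90%, 51O3 (PRPR) with 9.22% and 36K3 (PRPR) with 5.10%, and all others were at or below 3.08%. Over 16 litters without 35F, the deviations of littermates from their group means correlated with r = 0.817 for ensembl-snRNA, against 0.542 for Rfam-snoRNA, 0.477 for ensembl-snoRNA, 0.338 for ensembl-rRNA and 0.188 for Rfam-rRNA. These 16 litters include 02A, 14A and 08G, picked for low snRNA in both mice, so the snRNA value spans the gap that sets them apart. No correlation without them was computed.

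**Figure D3:**
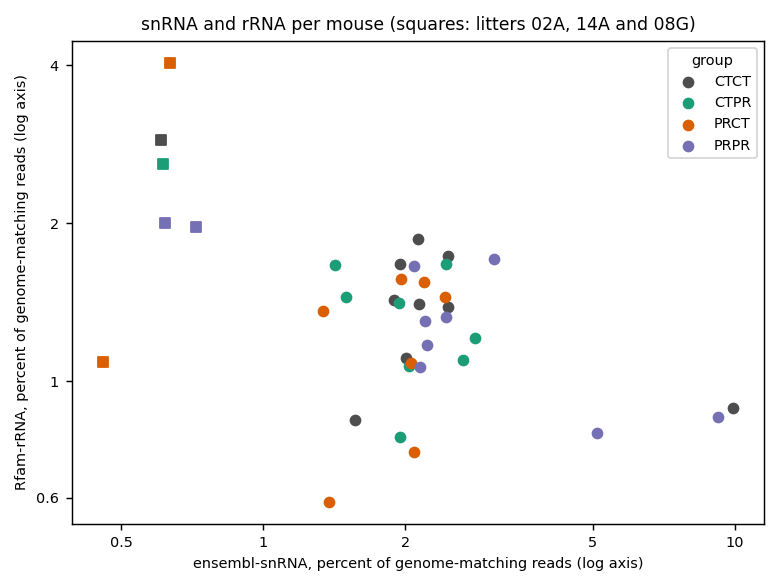
ensembl-snRNA against Rfam-rRNA in percent of genome-matching reads (both axes log) for 38 mice coloured by diet group, with squares for litters 02A, 14A and 08G. The squares lie at or below 0.718% snRNA, and the 3 mice highest in snRNA lie below 1% Rfam-rRNA.

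Group levels of ensembl-snRNA were close to each other apart from single mice. CTCT mice ran from 0.605% through a median of 2.07% to 9.90%, CTPR mice from 0.612% through 1.95% to 2.81%, PRCT mice from 0.457% through 1.96% to 2.43% and PRPR mice from 0.618% through 2.21% to 9.22%. Against CTCT the log2 fold changes were -0.49 ± 0.42 in CTPR, -0.75 ± 0.42 in PRCT and 0.14 ± 0.41 in PRPR, and without 35F2 they were 0.01 ± 0.37, -0.24 ± 0.37 and 0.64 ± 0.36. None passed, with adjusted p-values from 0.249 to 0.913 with all mice. Between PRPR and PRCT the log2 fold change was 0.89 ± 0.42 (p = 0.0441, adjusted p = 1), and it was 0.50 when 51O3 was left out.

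Within litters the direction was uniform after restriction before weaning. The PRPR mouse had more ensembl-snRNA than its PRCT littermate in 9 of 9 litters. Of the class rows, only the 5 rows described here were put to the littermate sign-flip test. Whether a uniform or nearly uniform direction is particular to ensembl-snRNA was therefore not tested. Litter 51O had 9.22% against 2.06%, 31A had 3.08% against 2.09%, 59L had 2.14% against 1.34% and 23F had 2.08% against 1.38%. In 39F the values were 2.44% against 2.43%, and in 40H they were 2.22% against 2.19%. Litters 08G and 31A each include a library whose totals did not add up. The mean littermate difference was 1.13 percentage points with p = 0.0039 in an exact two-sided sign-flip permutation test, the smallest that 9 litters allow, and adjusted p = 0.0391 over the 10 littermate tests. Without litter 51O, left out after the values were seen, it was 0.38 percentage points, higher in 8 of 8 litters, with p = 0.0078 in the same exact permutation test, the smallest that 8 litters allow, and adjusted p = 0.0586, so that the call was lost. On the log2 scale it was 0.53 ± 0.22 (SE, n = 9), and 0.33 without litter 51O. The edgeR fit with litter as a block gave 0.52 with an adjusted p of 0.422. In litters of control dams the CTPR mouse was higher in 3 of 8, and the mean on the log2 scale was -0.29 ± 0.31. The 2 sets of litters differed by 0.82 (exact permutation of litters, p = 0.0102, adjusted p = 0.0512 over the 5 rows), and by 0.53 without litter 35F (p = 0.0339, adjusted p = 0.17). In edgeR the CTPR change of ensembl-snRNA less the PRPR change against PRCT was -1.38 ± 0.60 with an adjusted p of 0.113, and -0.87 ± 0.52 without 35F2.

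The uniform direction depended on the denominator. Taken over all clean reads, ensembl-snRNA was higher in the PRPR mouse in 6 of 9 litters, by 0.48 on average on the log2 scale (exact sign-flip permutation test, p = 0.0469). As a share of genome-matching reads outside the snoRNA rows it was higher in 8 of 9 (0.50, p = 0.0195), and against the snoRNA reads in 7 of 9 (0.65, p = 0.0156). Against the rRNA reads it was higher in 6 of 9 (0.47, p = 0.148) and against the miRNA reads in 6 of 9 (0.60, p = 0.121). The mean was positive under each of these. Without litter 51O it was 0.27 over clean reads, 0.27 outside the snoRNA rows, 0.52 against snoRNA, 0.27 against rRNA and 0.24 against miRNA reads.

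**Figure D4:**
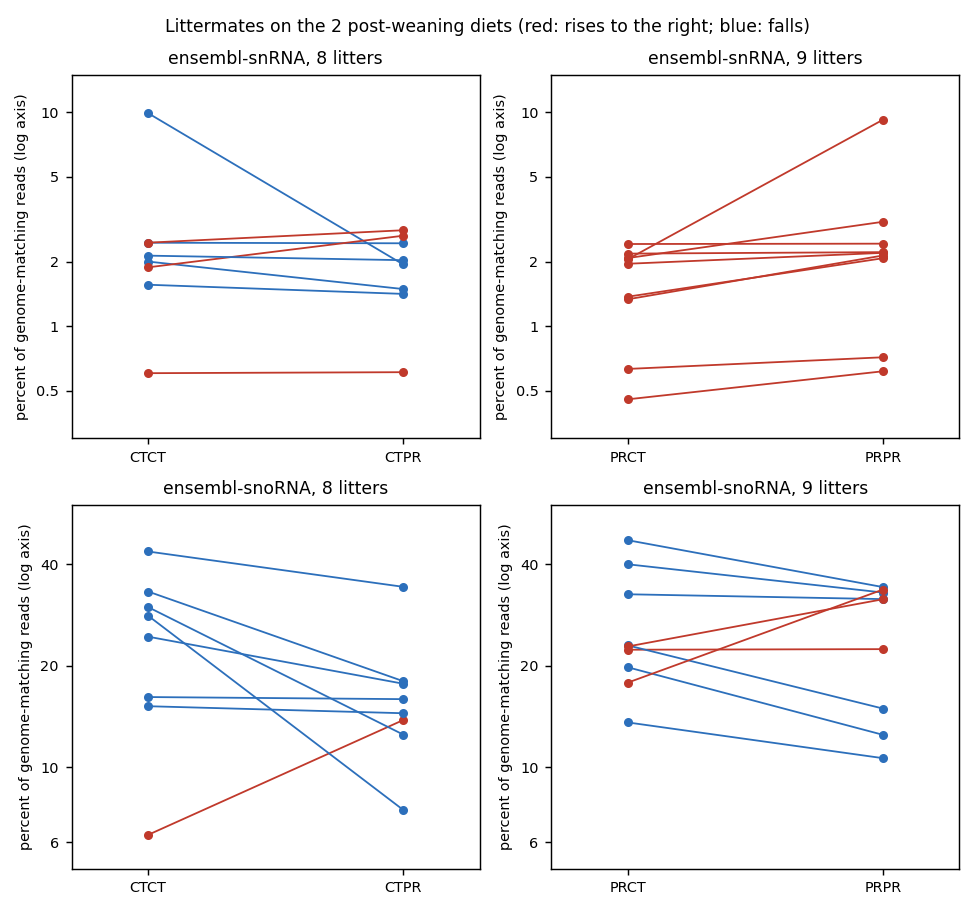
Percent of genome-matching reads (log axis) of ensembl-snRNA (top) and ensembl-snoRNA (bottom) in littermates on control and restricted diet after weaning, for 8 litters of control dams (left) and 9 litters of restricted dams (right), red where the value rises to the right. Red lines number 9 of 9 for snRNA in litters of restricted dams, and blue lines 7 of 8 for snoRNA in litters of control dams.

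ensembl-snRNA also went with marker miRNAs, in the opposite sense to snoRNA. Its Spearman's rho over 38 mice was 0.449 with the germ cell sum, 0.594 with epithelium, 0.533 with muscle and 0.612 with blood. The class row it moved with most closely was miRBase-miRNA (rho = 0.542) and the one it moved most against was Rfam-other (-0.434). The 3 closest single RNAs were mmu-mir-199a-1 (0.692), piR-mmu-3340705 (0.678) and mmu-mir-30b (0.666). In the 6 mice of litters 02A, 14A and 08G, miRBase-miRNA had 7805 to 37526 reads. Of the other mice only 07C3, with 10228, lay in that range. The rho values of ensembl-snRNA given here, and those with miRNAs on snoRNA genes above, span the gap between these litters and the rest. They were not computed without these litters. The part of the marker miRNAs and of the closest RNAs in the snRNA differences was not tested.

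No difference of the rRNA rows between the diets passed a test. ensembl-rRNA ran from 0.256% through a median of 0.674% to 1.09% in CTCT mice, from 0.291% through 0.556% to 0.852% in CTPR, from 0.365% through 0.619% to 0.981% in PRCT and from 0.421% through 0.627% to 0.977% in PRPR. Its log2 fold changes against CTCT were -0.21 ± 0.23, -0.02 ± 0.23 and 0.04 ± 0.23, and in PRPR against PRCT 0.05 ± 0.23. Rfam-rRNA ran from 0.843% through 1.42% to 2.89% in CTCT, from 0.783% through 1.41% to 2.60% in CTPR, from 0.590% through 1.36% to 4.05% in PRCT and from 0.798% through 1.32% to 2.01% in PRPR. Its log2 fold changes were -0.08 ± 0.27, -0.02 ± 0.27, -0.13 ± 0.27 and -0.11 ± 0.27. With all mice the p-values of both rows in edgeR were 0.379 or above, and adjusted p-values 0.55 or above. The highest Rfam-rRNA values were in 08G3 (4.05%), 02A6 (2.89%) and 02A8 (2.60%).

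Outside 35F2, Rfam-rRNA was the one row of the 5 with many reads that matched the database but not the mouse genome. These unmatched reads made up a median of 40.2% of all Rfam-rRNA reads, from 21.0% in 08G3 to 59.2% in 23F4, whereas the 3 ensembl rows had no unmatched row. The means were 40.4% ± 7.45 (SD, n = 10) in CTCT, 38.7% ± 6.24 (n = 9) in CTPR, 40.9% ± 13.2 (n = 9) in PRCT and 42.3% ± 9.83 (n = 10) in PRPR. The differences were -1.64 ± 3.14, 0.58 ± 5.00 and 1.89 ± 3.90 percentage points (SE) against CTCT and 1.32 ± 5.40 between PRPR and PRCT, with exact permutation p-values from 0.605 to 0.906. As shares of clean reads, the matched part ran from 0.341% to 2.25% and the unmatched part from 0.287% to 1.27%. The 2 parts followed each other little, with Spearman's rho of 0.198 over 38 mice. 08G3 was highest in the matched part and 02A6 in the unmatched part.

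**Figure D5:**
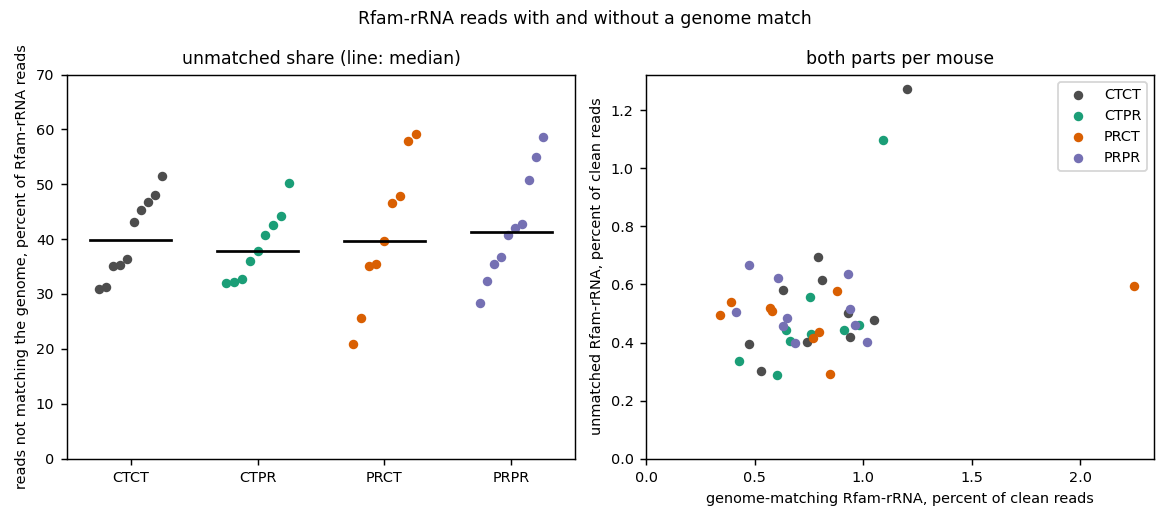
Left, reads not matching the genome as percent of all Rfam-rRNA reads per mouse with the group median as a line. Right, matched against unmatched Rfam-rRNA in percent of clean reads for the 38 mice, where 08G3 lies apart at 2.25% matched and 02A6 at 1.27% unmatched.

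No ratio between classes in the same mouse passed the adjusted threshold between groups. On the log2 scale snRNA to snoRNA was -3.51 ± 0.95 (SD) in CTCT, -3.04 ± 0.97 in CTPR, -4.12 ± 1.07 in PRCT and -3.36 ± 1.13 in PRPR. rRNA to snoRNA was -3.57 ± 1.3, -2.92 ± 0.64, -3.66 ± 1.15 and -3.52 ± 0.67, and rRNA to snRNA was -0.06 ± 1.39, 0.11 ± 0.94, 0.46 ± 1.13 and -0.16 ± 1.31. Among the 4 tested comparisons of these 3 ratios the largest difference was 0.76 ± 0.50 (SE) for snRNA to snoRNA in PRPR against PRCT (exact permutation test, p = 0.153). The 2 databases did not give 1 value for rRNA, since Rfam-rRNA exceeded ensembl-rRNA by 1.3 ± 0.51 in CTCT, 1.37 ± 0.66 in CTPR, 1.09 ± 0.89 in PRCT and 1.07 ± 0.77 in PRPR.

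The relations among the rows were computed across mice after the group means of the log2 percentages had been subtracted, for 10 pairs with permutations within groups. The 2 snoRNA rows moved together, with Pearson's r = 0.506 (adjusted p = 0.0282) and Spearman's rho = 0.586 (adjusted p = 0.0038) over 38 mice. Without the 2 mice farthest from the median of ensembl-snoRNA r was 0.415, and without 35F2 it was 0.634 (adjusted p = 0.0011, rho = 0.624). Within groups of all mice r was 0.462 in CTCT, 0.318 in CTPR, 0.856 in PRCT and 0.563 in PRPR. As ratios to the reads outside the 5 rows, a denominator that both rows still share, r was 0.60 (adjusted p = 0.0033). Littermates entered these permutations as separate mice, and over the means of 21 litters r was 0.478 (adjusted p = 0.088) and rho 0.483 (adjusted p = 0.153). For the 2 rRNA rows no relation was detected, with r = 0.136 (permutation test, p = 0.426) and rho = 0.0804, and r was 0.0524 without 35F2. Within groups their r was 0.676, 0.079, 0.0104 and -0.601 in the order above.

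Over all 38 mice, ensembl-snRNA and Rfam-rRNA had r = -0.571 (permutation test, adjusted p = 0.0027) and rho = -0.431 (adjusted p = 0.045). Without the 2 mice farthest from the median of Rfam-rRNA r was -0.596, and without 35F2 it was -0.543 (adjusted p = 0.00365). Within groups r was -0.643, -0.711, -0.305 and -0.83. On the ratio scale it was -0.529 (adjusted p = 0.0033) and over litter means -0.767 (adjusted p = 0.0024). The mice form separate clusters in snRNA, so these values span the gap between the low litters and the rest. In the 31 mice outside the low litters and without 35F2, picked by their snRNA values and given as a description, r was -0.166. For ensembl-snRNA and ensembl-rRNA r was 0.176 (adjusted p = 0.348) and rho 0.344 (adjusted p = 0.124) over 38 mice, r was 0.238 (adjusted p = 0.453) over litter means and 0.433 (adjusted p = 0.0199) without 35F2. Within groups of all mice r was -0.631, 0.477, 0.674 and 0.851, and in the same 31 mice it was 0.49. ensembl-snRNA and ensembl-snoRNA had r = 0.217 (adjusted p = 0.267) and rho = -0.106 over 38 mice. Rfam-rRNA and ensembl-snoRNA were negatively related over 38 mice, with r = -0.412 (adjusted p = 0.0282) and rho = -0.238 (adjusted p = 0.326), with r = -0.299 without the 2 farthest mice, and with r = -0.0706 once both were set against the reads outside the 5 rows. ensembl-rRNA and Rfam-snoRNA had r = -0.50 (adjusted p = 0.0261) with 35F2 and -0.317 (adjusted p = 0.146) without. Within groups the negative Rfam-rRNA relation was carried by CTCT (-0.688) and PRCT (-0.863), against 0.305 in CTPR and -0.148 in PRPR.

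The closest class rows to the other 3 rows, over 38 mice, were Unannotated for ensembl-rRNA (rho = 0.389), Rfam-DNA for Rfam-rRNA (0.738) and ensembl-processed_transcript for Rfam-snoRNA (0.612). The rows most opposed were ensembl-Mt_rRNA (-0.501), ensembl-scaRNA (-0.399) and piRNAdb-piRNA (-0.591) in the same order. ensembl-rRNA thus went against the rRNA of mitochondria. Among single RNAs, piR-mmu-10289504 (0.569), mmu-let-7b (0.54) and piR-mmu-3331210 (0.538) were closest to ensembl-rRNA, and piR-mmu-3745009 (0.646), piR-mmu-7828116 (0.622) and piR-mmu-962720 (0.616) to Rfam-rRNA. For Rfam-snoRNA they were piR-mmu-16510213 (0.474), mmu-mir-3535 (0.282) and piR-mmu-41525140 (0.0669), the first 2 being shared with ensembl-snoRNA.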

How the data were processed

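Small RNA of sperm from 38 mice was analysed. The authors annotated reads with SPORTS 1.0 (genome build mm10, then databases of small RNAs) and deposited raw read counts per class for each mouse, not pooled. Database versions are not given in the sources used here. The 29 class rows of genome-matching reads were tested with edgeR 4.0.16 (glmQLFit and glmQLFTest, R 4.3.3, genome-matching reads as library size, 1 common dispersion, all groups in 1 fit, Benjamini-Hochberg over the 29 rows, threshold 0.05), with DESeq2 1.42.0 as an alternative. Percentages, ratios and unmatched shares were compared with exact two-sided permutation tests and relations across mice with 100000 permutations within groups (Python 3.11.15, numpy 2.4.6, scipy 1.17.1). Some of the tests were checked on simulated data. Such checks cannot vouch for edgeR calls that were lost when a single outlying mouse was left out, as with Rfam-snoRNA. Each library is 1 mouse, and littermates share a dam. Litters, read from the mouse names, pair CTCT with CTPR in 8 litters and PRCT with PRPR in 9, and deviations of littermates over class rows correlated above 0.1 in 10 of 17. The 5 rows, marker lists and tests were chosen with earlier results of these data known. Named besides the 5 rows are the class rows of highest and lowest Spearman correlation, the 3 closest single RNAs and miRNAs on snoRNA genes. Depth makes counting error small except in Rfam-snoRNA, so precision follows from how much mice differ. 1 row without a class name was left out. Relations to rDNA variant and methylation measures were not analysed here. Sequences of 2 further genes are not reported here.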

Additional observations from a re-analysis of the deposited data

Results flagged for a closer look

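Among 24 sets of values (each of the 5 rows, and the unmatched Rfam-rRNA share, in each group), 7 held a mouse whose gap to the next exceeded Dixon's 95% critical value. Chance alone gives about 1 in 20 for normally distributed values. The percentages were tested untransformed and all 7 outlying values, from 6 mice, were the highest of their set, so this rate need not hold here. In the CTCT group these were 35F2 with 1.05% Rfam-snoRNA (next 0.0334%) and 9.90% ensembl-snRNA (next 2.46%), and 02A6 with 2.89% Rfam-rRNA (next 1.86%). In the CTPR group they were 02A8 with 2.60% Rfam-rRNA (next 1.67%) and 09H5 with 34.3% ensembl-snoRNA (next 18%). In PRCT it was 08G3 with 4.05% Rfam-rRNA (next 1.57%), and in PRPR it was 51O3 with 9.22% ensembl-snRNA (next 5.10%). 02A6 and 02A8 are littermates.

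The post-weaning effect on Rfam-snoRNA differed between the dam diets in edgeR, with a log2 value of -5.09 (adjusted p = 0.00872), and it came to -1.25 (adjusted p = 0.531) without 35F2. The Rfam-snoRNA reads that did not match the genome, which no comparison between groups used, numbered 136783 in 35F2 and at most 15 in the other mice.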

How the results depend on the processing

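Of 829 alternative values 676 kept their direction and their side of the threshold, and most of the others are rRNA and snoRNA differences near 0. Alternatives that leave out 35F2, the 4 mice with odd totals, the low litters or litter 51O, and those with other denominators for littermates, were chosen after seeing the data. Except where a mouse or litter is named as left out, the cause of a change was not tested. The low depth of Rfam-snoRNA, down to 27 reads, limits that row. A class row hides its single genes. "Odd mice" below are 35F2, 08G5, 31A3 and 07C3, and values are log2 fold changes unless stated.

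Class rows passing against CTCT in CTPR numbered 5, and 8 with TMM scaling, 1 with DESeq2 on either size factor, 3 with at least 10 reads in every mouse or with single RNAs added to the fit. In PRCT they numbered 6, and 1 with DESeq2 on genome reads, 0 with its own size factors and 2 with single RNAs added. In PRPR they numbered 5, and 0 with DESeq2, 3 with at least 10 reads and 2 with single RNAs. For the interaction they numbered 5, and 0 with DESeq2 or single RNAs and 3 with at least 10 reads. Without 35F2, without the odd mice and in permutation tests of percentages or log2 percentages 0 passed in each, as far as they were run.

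Litters, given by the mouse names, were used as a replicate block. Under the block 0 rows passed in CTPR, with or without 35F2. Rfam-snoRNA in CTPR was -1.72, and -1.21 without 35F2. The block gave Rfam-rRNA 0.026 in CTPR without 35F2, and 0.11 in PRPR against PRCT with or without that mouse. It gave ensembl-snRNA 0.0070 in CTPR without 35F2. On percentages, littermates gave ensembl-snRNA 1.13 points (past the threshold, and 0.38 without litter 51O, not past it) and ensembl-rRNA -0.0055 points in PRPR against PRCT, the unmatched Rfam-rRNA share -0.10 points and Rfam-rRNA to ensembl-rRNA 0.12. The littermate difference of ensembl-snRNA was 0.47 over rRNA and 0.60 over miRNA reads, neither past the threshold. The block changed no other call between groups, and over litter means 2 correlations given below no longer passed.

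Rfam-snoRNA in CTPR (-5.93) was -2.08 without 35F2, -1.32 without the odd mice, -0.11 points in percent and -2.36 in log2 percent, each no longer passing. In PRCT (-3.30) it was 0.61 and 0.14 with DESeq2 on genome reads and its own size factors, 0.54 without 35F2 and 1.26 without the odd mice. It stayed at -3.30 but did not pass with single RNAs added or the pair of groups alone, and was -0.10 points in percent and -0.086 in log2 percent. In PRPR (-4.13) it was -0.23 and -0.26 with DESeq2, -4.13 with single RNAs added, -0.29 without 35F2, 0.58 without the odd mice, -0.11 points and -0.91 in log2 percent. The interaction (-5.09) was -1.19 and -1.70 with DESeq2, -5.09 with single RNAs added, -1.25 without 35F2 and -0.64 without the odd mice.

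ensembl-snoRNA in CTPR (-0.78) passed at -0.88 without litter 02A, and ran from -1.01 to -0.67 with 1 mouse left out, passing at -1.01 without 09H5. In PRCT (-0.047) it was 0.070 with TMM, 0.054 with DESeq2 on its own size factors, 0.052 without the odd mice and 0.035 in log2 percent, and ran from -0.19 to 0.062 with 1 mouse left out. Without the odd mice it was 0.099 in PRPR and 0.047 in PRPR against PRCT, where 1 mouse left out gave -0.17 to 0.063.

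ensembl-snRNA in CTPR (-0.49) was 0.013 without 35F2 and 0.017 without the odd mice, and 0.018 points in percent without 35F2. In PRPR it ran from -0.24 (without 51O3) to 0.26 with 1 mouse left out. Its interaction passed at -1.66 with the library size without snoRNA.

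ensembl-rRNA in PRCT (-0.016) was 0.13 with TMM, 0.0018 with the library size without snoRNA, 0.029 with clean reads, 0.10 with DESeq2 on its own size factors, 0.10 without 02A, 0.044 without 47I and 0.061 in log2 percent. In percent it was 0.019 points without 47I and 0.043 without 02A. In PRPR (0.035) it was -0.058 without 35F2, -0.078 without the odd mice and -0.027 points in percent without 35F2. Leaving out 1 mouse gave -0.12 to 0.10 in PRCT, -0.046 to 0.15 in PRPR and -0.030 to 0.15 in PRPR against PRCT.

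Rfam-rRNA in CTPR (-0.08) was 0.027 with the 47I mice exchanged, also in points. In PRCT (-0.024) it was 0.0015 with TMM, 0.026 with clean reads, 0.062 with DESeq2 on its own size factors, 0.026 with 47I exchanged (0.027 points), 0.13 without 02A (0.13 points) and 0.0097 without the odd mice. In PRPR it was 0.019 without 02A (0.018 points), and in PRPR against PRCT 0.038 in log2 percent. Its interaction was -0.20 with the library size without snoRNA, -0.013 with summed class rows and -0.036 without 35F2. Leaving out 1 mouse gave -0.23 to 0.072 in CTPR, -0.37 to 0.13 in PRCT, -0.21 to 0.019 in PRPR, -0.21 to 0.24 in PRPR against PRCT and -0.32 to 0.18 for the interaction. Its unmatched share in PRCT was -0.013 points without 47I.

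The log2 ratio of rRNA to snoRNA in PRCT was 0.031 without 47I, 0.24 without 02A and 0.37 with medians, in PRPR -0.081 without 35F2 and in PRPR against PRCT -0.33 with medians. rRNA to snRNA was -0.11 with medians and -0.16 without 35F2 in CTPR, -0.090 with medians in PRCT and 0.21 without 02A in PRPR. Rfam-rRNA to ensembl-rRNA was -0.068 without 02A in CTPR and 0.22 with medians in PRPR against PRCT. Rfam-snoRNA to ensembl-snoRNA in PRCT was 0.66 with medians and 0.63 without 35F2. Rfam-snoRNA in PRCT was 0.0035 points higher without 35F2.

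Of the correlations, ensembl-rRNA with Rfam-rRNA was -0.027 on the ratio scale and -0.070 over litter means, and ensembl-rRNA with ensembl-snoRNA 0.13 on the ratio scale. ensembl-rRNA with Rfam-snoRNA was -0.24 on the ratio scale, -0.32 without 35F2 and -0.22 without the low litters too. ensembl-rRNA with ensembl-snRNA was 0.43 without 35F2 and 0.49 without the low litters too. Rfam-rRNA with ensembl-snoRNA was -0.071 on the ratio scale, -0.51 over litter means (no longer passing) and -0.18 without 35F2 and the low litters. In the last setting Rfam-rRNA with ensembl-snRNA was -0.17, ensembl-snoRNA with ensembl-snRNA -0.080 and Rfam-snoRNA with ensembl-snRNA -0.24 (-0.12 without 35F2). ensembl-snoRNA with Rfam-snoRNA was 0.48 over litter means and no longer passed.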

Other observations

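A further 5 listed miRNAs have hairpins that overlap scaRNA genes wholly or in part. The products of these genes guide modification of snRNAs in the Cajal body. mmu-mir-1839 had a median of 180 reads per mouse, mmu-mir-1843b (on Scarna3a) 103, mmu-mir-1843a (on Scarna3b) 36 and mmu-mir-6516 (on Gm26083) 6, and mmu-mir-3069 (on Scarna13) had reads in 3 mice. Their sum had medians of 51.7 per 1000000 genome-matching reads in CTCT, 71.0 in CTPR, 48.3 in PRCT and 45.2 in PRPR, with ranges that overlapped. Over 38 mice its Spearman's rho with ensembl-snoRNA was -0.402, whereas that of the 7 miRNAs on snoRNA genes was -0.0012. Among the single miRNAs, mmu-mir-1843b had a rho of 0.693 and mmu-mir-1839 of 0.529 with ensembl-snRNA, values that also span the gap between the low litters and the rest. The difference between the 2 sets was not tested.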
